A study of Mus musculus with 4 samples.

Results

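Scavenger receptors are membrane proteins that bind modified lipoproteins, apoptotic cells, microbes and other cell debris, and they are described here through 8 genes in flow-sorted mouse liver macrophages. The 8 genes, Msr1, Cd36, Cd68, Scarb2, Olr1, Colec12, Cd93 and Scarf1, were taken by symbol from a table of 29247 Ensembl genes, and all 8 were found and passed the filter on low counts. The study sequenced messenger RNA of liver macrophages from C57BL6J mice aged 8 weeks. In 3 libraries the cells were Cxcr4+ macrophages collected 72 h after 300 mg/kg acetaminophen (APAP), a painkiller toxic to hepatocytes in overdose, given intraperitoneally, and 1 library holds control macrophages. Since a Cxcr4+ sort is named for the APAP group alone, drug and sort cannot be told apart, and the labels give neither the gate nor a vehicle for the control.

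Receptors of this kind are grouped by structure into lettered classes rather than by common ancestry. Msr1 and Colec12 are collagen-like class A receptors, Cd36 and Scarb2 are class B receptors with a loop of protein between a pair of membrane anchors, Cd68 is the mucin-like class D receptor, Olr1 is the lectin-like class E receptor for oxidised LDL, and Scarf1 is a class F receptor with repeats of the epidermal growth factor type. Cd93 belongs to the group XIV C-type lectins, a separate family known from endothelium and myeloid cells, and has been linked to the removal of apoptotic cells. In the liver, Kupffer cells and sinusoidal endothelium carry out most scavenger uptake, and monocytes that enter after injury bring their own set of receptors.

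The APAP libraries, numbered 1 to 3 in the order of the table, held 48282283, 52043418 and 56702837 counts and the control held 49950909. At this like depth, 23376, 23854 and 23880 genes had counts in the APAP libraries, against 18793 in the control. The cause of this gap was not tested, and it bears on every gene at 0 in the control. In the annotation used, exons of 0 of the 8 genes overlapped those of another gene on either strand. Levels are in CPM, read counts normalised for library size by the trimmed mean of M-values (TMM) method, and a gene was called when edgeR's quasi-likelihood test gave an adjusted p of at most 0.05. Only the APAP group has replicates, and the labels do not tie them to separate animals, so the p-values reflect only how far these samples differ, which may be technical variation. For the single control the same variation is assumed. The sort marker Cxcr4 was at 84.5, 132 and 101 CPM after APAP, against 41.3 CPM in the control. All 8 pan-macrophage markers examined were above 1 CPM in the control, and their summed level was 15175 to 18260 CPM after APAP, against 17776 CPM in the control. Lyz2 and Csf1r weighed most in this sum, and single markers differed, with 1 higher, 3 lower (Fcgr1, Cd14 and Adgre1) and 4 not called.

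The 8 receptor genes did not move as one. Cd93, Cd36, Colec12 and Olr1 were higher in APAP Cxcr4+ macrophages, Scarf1, Msr1 and Cd68 were lower, and Scarb2 was not called. Over all 18715 genes tested, 44.3% were called, 25.4% higher and 18.9% lower, beside 7 of the 8 genes called, 4 higher and 3 lower. All APAP libraries lay above the control for 4 of the 8 genes and for 45.7% of all genes, and below it for 3 of the 8 and for 39.2% of all, so the control fell outside their range for 7 of the 8 and for 84.8% of all. The median log2 fold change of the 8 genes was 0.89, against 0.08 over all genes tested. No receptor was near this median, which falls in the gap between Scarb2 (-0.02) and Colec12 (1.81). Mean levels of the genes that rose were at least 3.50-fold higher than in the control, and those of the 3 genes that fell were 1.47-fold to 1.57-fold lower.

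**Figure D1:**
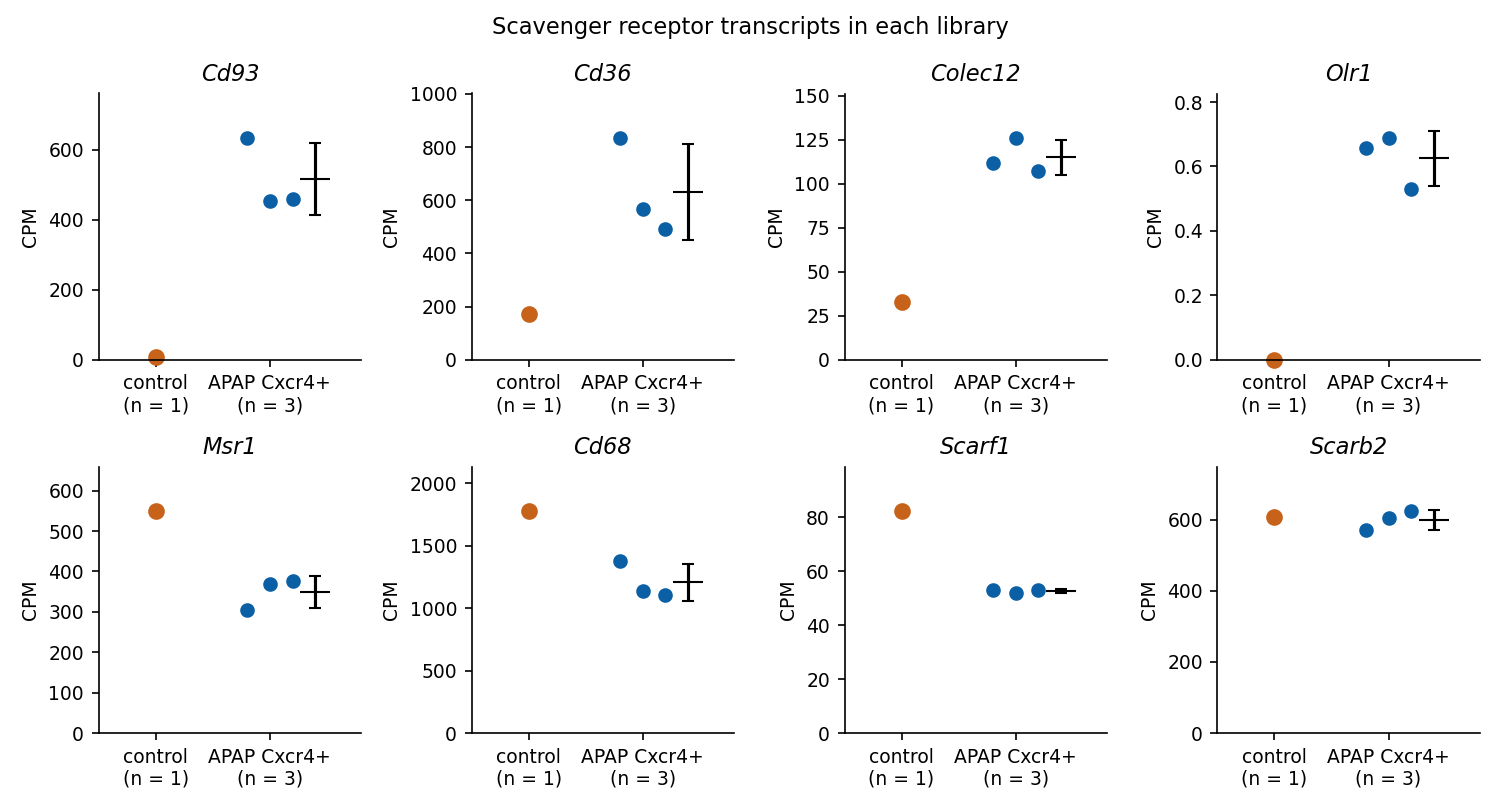
Level of each scavenger receptor transcript in CPM on a linear axis from 0, with the control library in orange, the 3 APAP Cxcr4+ libraries in blue (left to right, libraries 1 to 3) and their mean with SD in black. The 3 APAP libraries lie above the control for Cd93, Cd36, Colec12 and Olr1 and below it for Msr1, Cd68 and Scarf1, while the control lies within their range for Scarb2.

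Cd93 (ENSMUSG00000027435), a surface lectin of monocytes, endothelium and early B cells, showed the largest fold change of the 7 receptors with reads in the control. It had 384 counts in the control and 31870, 24435 and 26969 counts in the APAP libraries. These correspond to 8.54 CPM, with an exact Poisson 95% interval of 7.71 to 9.44 CPM that covers counting error only, and to 634, 455 and 460 CPM. Every APAP library was far above the control, and library 1 was the highest. The APAP mean of 516 ± 102 CPM (SD, n = 3) was 60.4-fold higher (log2 fold change 5.92, SE 0.31, adjusted p = 0.000841).

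The other 3 genes of the group XIV lectin family had log2 fold changes of -1.77 to 0.81. Thrombomodulin (Thbd), an anticoagulant receptor of endothelium and monocytes, fell by 0.74 on the log2 scale (SE 0.14, adjusted p = 0.0106). Clec14a, an endothelial lectin, rose by 0.81 (SE 0.19, adjusted p = 0.0178), a call that was lost without APAP library 2. Cd248, a stromal member, was at 0.734 CPM in the control and 0.149 to 0.307 CPM in the APAP libraries and was not called (log2 fold change -1.77, adjusted p = 0.053). Without APAP library 3, 2 of these 3 genes were called lower.

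Cd93 is also made by cells other than macrophages, so their markers are given beside it. Over all genes tested, 44.3% were called, 25.4% higher and 18.9% lower. The counts of called markers here and below stand beside these shares. Of 14 endothelial markers, 3 were higher, 6 lower and 5 not called. Their summed level was 765 to 1076 CPM after APAP, against 1626 CPM in the control. Most of this sum came from Cdh5, chosen after its values were seen. Cdh5 stood at 474, 692 and 748 CPM in APAP libraries 1 to 3, against 1268 CPM in the control, so the fall of the sum mostly follows this gene. Without APAP library 2, 3 endothelial markers were lower, and limma-voom called 1 higher. Of 8 immature B cell markers, 5 were tested, and 3 were higher and 1 lower. Their summed level was 4.91 to 6.33 CPM against 2.71 CPM, with the recombinase gene Rag2 at 0 in every library and Rag1 at 0 in the control. Dntt, the terminal transferase of early lymphocytes, had 0 counts in the control and stood at 2.05, 1.04 and 1.86 CPM after APAP. The progenitor factor gene Myb stood at 1.81, 1.66 and 1.89 CPM against 0.0890 CPM, and Vpreb3 at 0.995, 0.782 and 0.717 CPM against 0.0445 CPM. These were the 3 genes called higher, and 0 markers of this list were called lower when any 1 APAP library was left out. All 8 B cell markers were higher, with a summed level of 151 to 248 CPM against 34.8 CPM. Of 10 monocyte markers, 8 were higher and 2 lower (1 without APAP library 2 or 3), with a summed level of 749 to 936 CPM against 290 CPM. The part of these cells in the Cd93 level was not tested, and in bulk RNA more cells of a type cannot be told apart from more RNA per cell.

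The class A receptors went in opposite directions. Msr1 (ENSMUSG00000025044), the macrophage receptor for modified LDL and polyanions, stood at 305, 368 and 377 CPM in APAP libraries 1 to 3, against 549 CPM in the control. All 3 APAP libraries were below the control, and library 1 was the lowest. The mean of 350 ± 39.5 CPM (SD, n = 3) was 1.57-fold lower than the control (log2 fold change -0.65, SE 0.14, adjusted p = 0.0144). The value was -0.69 without APAP library 2, where the adjusted p was 0.0523.

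Colec12 (ENSMUSG00000036103), a collectin of endothelium and stroma that binds oxidised LDL and sugars, stood at 112, 126 and 107 CPM in APAP libraries 1 to 3, against 32.8 CPM in the control. The APAP libraries lay close together and did not overlap with the control. Their mean of 115 ± 9.91 CPM (SD, n = 3) was 3.50-fold higher (log2 fold change 1.81, SE 0.13, adjusted p = 0.00107). Of 10 stellate cell and fibroblast markers, 4 were higher and 3 lower. Their summed level, 47.1 to 59.1 CPM after APAP against 44.8 CPM in the control, hides opposite shifts of single genes. Col1a1 rose from 0.801 CPM in the control to a mean of 7.36 CPM after APAP, and Col3a1 from 2.76 to 18.0 CPM. Col1a2 rose from 1.38 to 6.83 CPM and Lum from 0.178 to 0.690 CPM. Des fell from 4.49 to 0.894 CPM, Lrat from 8.86 to 2.83 CPM and Dcn from 17.9 to 9.26 CPM. The part of stromal and endothelial cells in the Colec12 level was not tested.

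Among the other class A genes, Marco, a receptor of resident and splenic macrophages, was at 1274, 1419 and 886 CPM after APAP, against 779 CPM in the control. All 3 APAP libraries were above the control, but Marco was not called (log2 fold change 0.62, 95% interval -0.04 to 1.27, adjusted p = 0.109). Scara3 was at 0.401 CPM or less in every library and was not called, and Scara5 was at 0.112 CPM or less and was not tested.

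The class B receptors also parted. Cd36 (ENSMUSG00000002944), the fatty acid and oxidised LDL receptor of monocytes, macrophages, platelets and endothelium, stood at 834, 567 and 490 CPM in APAP libraries 1 to 3, against 172 CPM in the control. No APAP library overlapped with the control, and library 1 was 1.70 times library 3, the widest spread among the 8 genes. The mean of 630 ± 181 CPM (SD, n = 3) was 3.66-fold higher (log2 fold change 1.87, SE 0.33, adjusted p = 0.00731). Tested against a 2-fold change (glmTreat, against a log2 fold change of 1), the rise was not called (adjusted p = 0.072).

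Scarb2 (ENSMUSG00000029426), a lysosomal membrane protein that also sorts enzymes to the lysosome, stood at 570, 604 and 623 CPM in APAP libraries 1 to 3, against 609 CPM in the control. The control lay between APAP libraries 2 and 3. The log2 fold change was -0.02 (SE 0.10, adjusted p = 0.873), with a 95% interval of -0.28 to 0.23. Scarb1, the class B receptor for HDL, stood at 393 to 516 CPM after APAP, against 570 CPM in the control and was not called (log2 fold change -0.29, 95% interval -0.70 to 0.12).

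Markers of platelets, which carry much Cd36, went both ways. Of 8 platelet and megakaryocyte markers, 5 were tested, with 1 higher and 1 lower, and their summed level was 23.3 to 29.1 CPM after APAP, against 40.0 CPM in the control. Treml1, a receptor of platelet granules, had 0 counts in the control and stood at 1.93, 1.77 and 2.24 CPM after APAP (higher), Pf4, the platelet chemokine, stood at 25.5, 18.7 and 21.5 CPM against 38.4 CPM (lower), and the platelet receptor gene Gp6 was at 0 in every library. Neutrophil marker sums were 342, 269 and 189 CPM in APAP libraries 1 to 3 and 116 CPM in the control. Stellate cell and fibroblast sums were 59.1, 55.8 and 47.1 CPM in the same APAP libraries. Monocyte sums were 834, 936 and 749 CPM, and platelet sums were 29.1, 23.3 and 25.7 CPM. Endothelial sums were 765, 990 and 1076 CPM, of which Cdh5 alone made up 474, 692 and 748 CPM. The part of any of these cells in the spread of Cd36 was not tested.

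Cd68 (ENSMUSG00000018774), a heavily glycosylated protein of macrophage late endosomes and lysosomes, was the most abundant of the 8 transcripts per length in every library. It stood at 1377, 1142 and 1107 CPM in APAP libraries 1 to 3, against 1776 CPM in the control. All 3 APAP libraries were below the control. The mean of 1208 ± 147 CPM (SD, n = 3) was 1.47-fold lower (log2 fold change -0.56, SE 0.15, adjusted p = 0.0302). The fall was not called without APAP library 2 (-0.52, adjusted p = 0.119) or when counts were scaled by their totals alone (-0.35, adjusted p = 0.112).

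Olr1 (ENSMUSG00000030162), the lectin-like receptor for oxidised LDL best known from endothelium and activated macrophages, was barely detected. It had 33, 37 and 31 counts in the APAP libraries, or 0.657, 0.689 and 0.529 CPM, and 0 counts in the control. The 3 APAP libraries were alike and each exceeded 0.0668 CPM, the level that 3 counts would give in the control. Against that floor the mean of 0.625 ± 0.0846 CPM (SD, n = 3) was at least 9.36-fold higher, a bound that covers counting error only (adjusted p = 0.00475).

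Scarf1 (ENSMUSG00000038188), a receptor for modified LDL and for apoptotic cells opsonised by C1q, stood at 53.1, 52.0 and 53.2 CPM in APAP libraries 1 to 3, against 82.3 CPM in the control. The APAP libraries were almost equal, and all lay below the control. The mean of 52.8 ± 0.658 CPM (SD, n = 3) was 1.56-fold lower (log2 fold change -0.64, SE 0.08, adjusted p = 0.00301). Its class F relative Scarf2 fell by 1.62 (SE 0.30, adjusted p = 0.00883), from 4.14 CPM in the control to 1.05, 1.64 and 1.33 CPM. Megf10, a class F phagocytic receptor of glia, was at or near 0 in every library. When tested against a 2-fold change, none of the falls of Msr1, Cd68 and Scarf1 was called (adjusted p = 1 for each by glmTreat).

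The upstream sequences of Cd68 and Olr1 are shown because these genes lie at the ends of the range of abundance and moved in opposite directions. RefSeq promoters (build GRCm38.p6, not the mm39 build of the counts) were matched for 4 of the 8 genes, Cd36, Cd68, Olr1 and Scarb2. The 250 bases before the listed start were searched on both strands for 4 motifs. These were GAGGAA, the core bound by the macrophage factor PU.1 and other ETS proteins; TGANTCA, bound by AP-1; TTGCNNAA, bound by C/EBP factors; and TCACGTG, bound by the MiT/TFE factors of lysosomal genes. The lines give the minus strand, 5′ to 3′, at chr11:69666171-69666420 and chr6:129507166-129507415, with motif matches, none of which overlapped, in capitals.
Cd68: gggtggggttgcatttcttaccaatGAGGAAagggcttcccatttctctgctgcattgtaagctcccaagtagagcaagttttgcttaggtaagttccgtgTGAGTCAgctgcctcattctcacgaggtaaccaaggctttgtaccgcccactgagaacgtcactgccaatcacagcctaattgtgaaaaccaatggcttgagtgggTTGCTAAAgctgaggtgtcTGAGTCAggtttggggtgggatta
Olr1: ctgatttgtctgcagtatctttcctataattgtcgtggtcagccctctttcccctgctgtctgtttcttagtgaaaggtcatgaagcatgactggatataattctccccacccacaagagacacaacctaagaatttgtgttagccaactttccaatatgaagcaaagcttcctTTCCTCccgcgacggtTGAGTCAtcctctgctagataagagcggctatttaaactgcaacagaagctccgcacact
The Cd68 stretch held 1 GAGGAA, 2 TGANTCA and 1 TTGCNNAA match, and the Olr1 stretch held 1 GAGGAA match, on the opposite strand, and 1 TGANTCA match. Of 32851 promoter windows of this length, 23.3% held GAGGAA, 6.75% TGANTCA, 9.56% TTGCNNAA and 3.13% TCACGTG. The Cd36 and Scarb2 stretches held none of the 4. A match describes letters and not a bound site.

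Divided by exon length, the order of the 8 transcripts changed between the groups. In the control, Cd68 led with 1413 CPM per kb of exon, followed by Scarb2 at 96.8, Msr1 at 86.5, Cd36 at 48.0, Scarf1 at 28.5, Colec12 at 3.76 and Cd93 at 1.28 CPM per kb, with Olr1 at 0. In the APAP libraries, Cd68 averaged 961 ± 117 CPM per kb (SD, n = 3) and Cd36 came next with 176 ± 50.3 CPM per kb. Scarb2 and Cd93 followed at 95.3 ± 4.30 and 77.3 ± 15.3 CPM per kb.

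Scarb2 and Cd93 could not be ordered, since Cd93 was the higher of them in library 1 and the lower in libraries 2 and 3. Msr1 came after them in each APAP library at 55.2 ± 6.23 CPM per kb, Scarf1 had 18.3 ± 0.228, Colec12 13.2 ± 1.14 and Olr1 0.175 ± 0.0237 CPM per kb. With the exception of Scarb2 and Cd93, the order was the same in all 3 APAP libraries. Thus Cd93 moved from the seventh place in the control to the third or the fourth, and Msr1 from the third to the fifth.

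**Figure D2:**
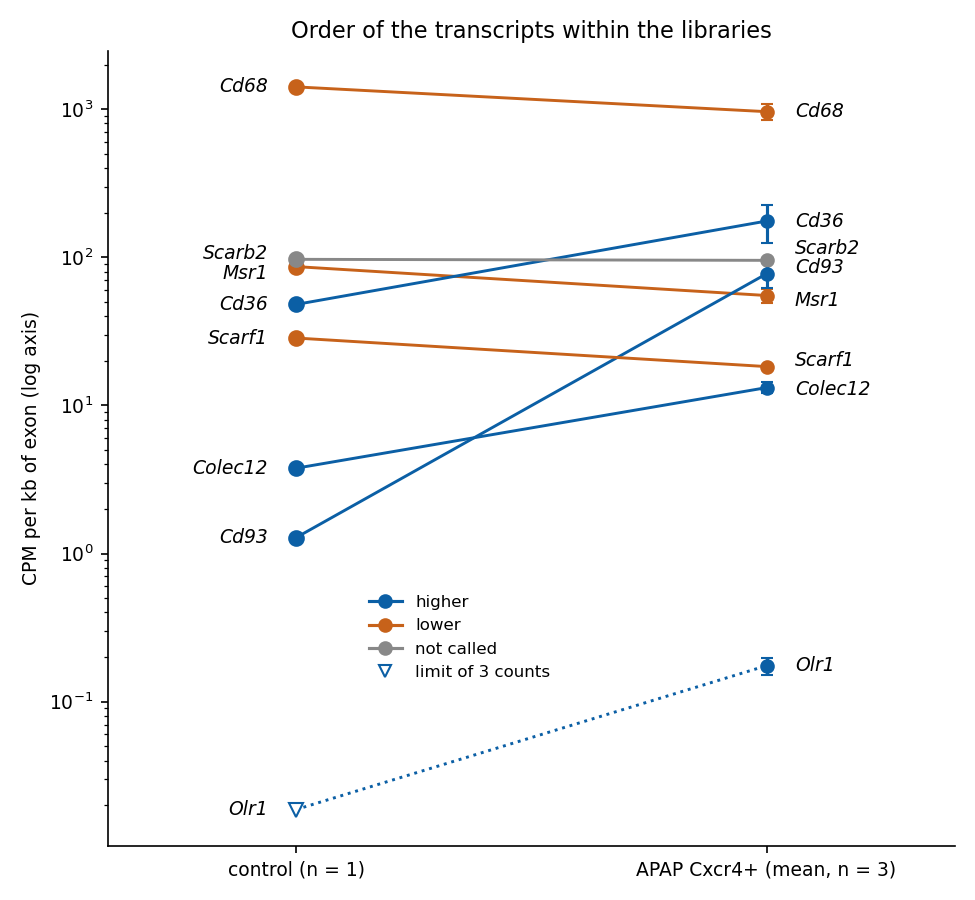
Level of the 8 transcripts in CPM per kb of exon on a log axis, in the control library (left) and as the mean of the 3 APAP Cxcr4+ libraries with SD (right), coloured by the call of the edgeR test. Cd93 crosses the lines of Colec12, Scarf1 and Msr1 and ends at 77.3 CPM per kb; Olr1, at 0 in the control, is drawn there as an open triangle at the level of 3 counts.

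Fold changes in these libraries also followed exon length (Spearman's rho 0.223 across 18644 genes, which share libraries and are not independent). The 1000 genes nearest in length to each receptor had a median log2 fold change of 0.45 for Colec12, 0.32 for Scarb2, 0.31 for Msr1, 0.27 for Cd93, -0.05 for Cd36, -0.06 for Olr1, -0.12 for Scarf1 and -0.30 for Cd68. With the trend removed, the log2 fold change of Cd68, the shortest of the 8 at 1257 bases of exon, was -0.16, and that of Msr1 was -0.90. The part of length in these changes was not tested.

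The spread within the APAP group differed between the receptors. The ratio of the highest to the lowest APAP library was 1.70 for Cd36, 1.39 for Cd93, 1.24 for Cd68 and Msr1, and 1.02 for Scarf1. Summed Kupffer cell markers were lowest in library 1, at 11784 CPM, against 14702 and 15246 CPM in libraries 2 and 3 and 33283 CPM in the control, and 9 of 10 of them were called lower in the APAP group. Without library 1, the log2 fold changes were 1.62 for Cd36, 5.74 for Cd93, -0.66 for Cd68 and -0.56 for Msr1, all still called.

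The wider set of scavenger receptors also went both ways. Of 19 other genes from classes A to L and the scavenger receptor cysteine-rich (SRCR) family, 17 were tested. Of these, 7 were higher, 3 lower and 7 not called, with a median log2 fold change of -0.06. Among all genes tested, 25.4% were higher and 18.9% lower. Stab1, the stabilin that clears modified LDL and ageing cells, rose by 2.18 (SE 0.17, adjusted p = 0.00112), from 225 CPM to 1125, 896 and 1031 CPM. The endocytic receptor Lrp1 rose by 1.25 (SE 0.15, adjusted p = 0.00257) and the beta-glucan receptor Clec7a by 1.21 (SE 0.11, adjusted p = 0.00147). Without APAP library 2, 4 genes were higher, and without library 3, 5 were lower.

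The other genes of this set that rose were low in abundance. Cd5 and Cd6, SRCR receptors of T cells, rose by 1.47 and 1.62 on the log2 scale, from 2.36 and 2.67 CPM in the control to 5.34 to 7.40 CPM and 5.48 to 11.3 CPM. Of 8 T cell markers, 6 were higher, Cd5 and Cd6 among them, and their summed level was 85.3 to 115 CPM after APAP, against 44.5 CPM in the control; their part in this was not tested. Without APAP library 2, 3 of the 8 were higher. Ager, the receptor for advanced glycation end products, rose by 0.97 (adjusted p = 0.0392). Ssc5d, a soluble SRCR protein, had 19, 18 and 10 counts after APAP and 0 in the control, at least 4.41-fold higher (adjusted p = 0.0264).

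Besides Scarf2, the lower genes were Cxcl16 and Asgr1. Cxcl16, a membrane-bound chemokine that also binds oxidised LDL, fell by 1.15 (SE 0.16, adjusted p = 0.00369), from 376 CPM to 143, 192 and 173 CPM. Asgr1, the asialoglycoprotein receptor of hepatocytes, fell by 1.23 (adjusted p = 0.0405), from 3.23 CPM to 1.33, 0.968 and 1.81 CPM. Of 8 hepatocyte markers, 6 were lower, and their summed level was 235 to 391 CPM after APAP, against 808 CPM in the control; their part in the fall of Asgr1 was not tested.

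Several receptors known from resident macrophages and sinusoids were not called. The mannose receptor Mrc1 had a log2 fold change of -0.12 (95% interval -0.62 to 0.37) and the hyaluronan receptor Cd44 one of -0.06 (-0.32 to 0.20). Stab2, the second stabilin and a marker of sinusoidal endothelium, had a value of -0.35 (-0.80 to 0.09), while Stab1 rose; the difference between them was not tested. The haemoglobin receptor Cd163 had a value of -0.50 with a wide interval of -1.67 to 0.66, since it stood at 760 CPM in APAP library 1, 1432 in library 2 and 2039 in library 3, beside 2000.2 CPM in the control.

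**Figure D3:**
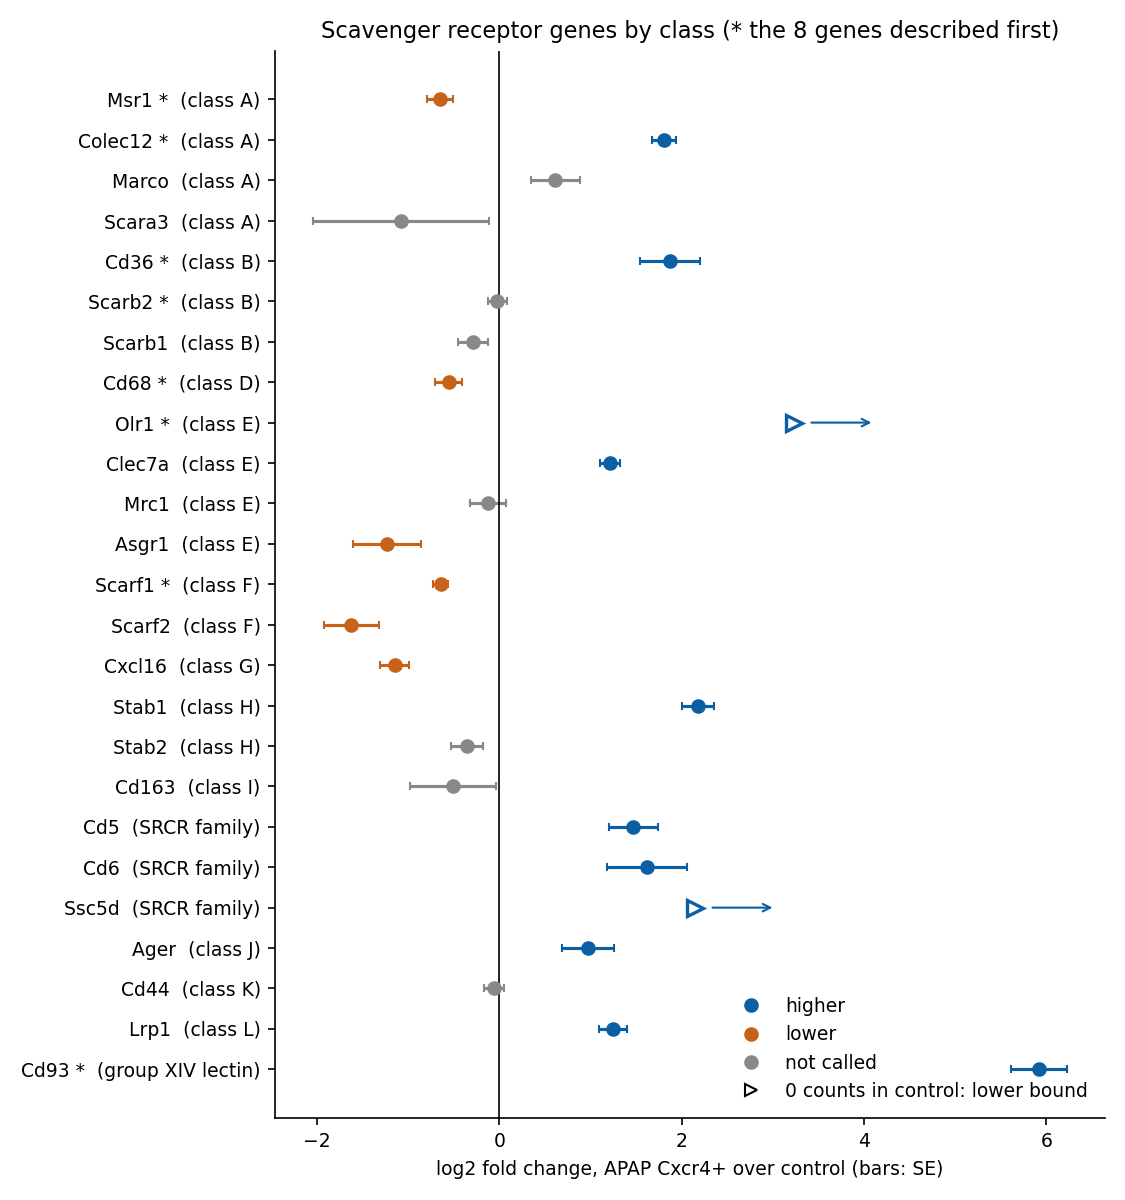
Log2 fold change of APAP Cxcr4+ macrophages (n = 3) over control (n = 1) with SE for the 8 genes (marked with a star) and the 17 other scavenger receptor genes tested, ordered by class and coloured by the call. Cd93 lies farthest to the right at 5.92; open triangles with an arrow mark the lower bounds of Olr1 and Ssc5d, which had 0 counts in the control.

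Genes that handle the lipids taken up through Cd36 and Msr1 were called about as often as genes in general. Of 15 genes, 14 were tested, and 5 were higher, 1 lower and 8 not called, with a median log2 fold change of 0.51; of all genes tested, 44.3% were called, 25.4% higher and 18.9% lower. The cholesterol exporter Abca1 rose by 1.51 (SE 0.11, adjusted p = 0.00107), from 457 CPM to 1302, 1292 and 1321 CPM. Pparg, the nuclear receptor known to drive Cd36 transcription, rose by 1.23 (SE 0.17, adjusted p = 0.0036), from 13.8 CPM to 34.1, 28.0 and 34.8 CPM. The part of Pparg in the Cd36 level was not tested.

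The fatty acid carrier Fabp5 rose by 4.19 (SE 0.70, adjusted p = 0.00659), from 6.25 CPM to 187, 77.1 and 78.3 CPM, with library 1 the highest, as for Cd36. Nr1h3, the oxysterol receptor LXR alpha, which is also high in Kupffer cells, fell by 1.33 (SE 0.20, adjusted p = 0.00493).

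Genes of the lysosome, the compartment of Cd68 and Scarb2, went both ways. Of 18 genes, 7 were higher, 5 lower and 6 not called, with a median log2 fold change of -0.15. The shares over all genes tested were 25.4% higher and 18.9% lower. Atp6v0d2, a proton pump subunit of macrophages and osteoclasts, rose by 5.10 (SE 0.47, adjusted p = 0.00142), from 0.757 CPM to 35.1, 21.1 and 21.9 CPM, and the cholesterol transporter Npc1 rose by 1.18 (SE 0.15, adjusted p = 0.00275). The sialidase Neu1 fell by 0.50 (SE 0.08, adjusted p = 0.00628). Without APAP library 2, 2 lysosomal genes were higher and 1 lower.

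Cell type markers other than those above also moved with the APAP group. Of 8 plasmacytoid dendritic cell markers, 7 were higher, with a summed level of 182 to 210 CPM against 94.0 CPM in the control, and of 8 conventional dendritic cell markers 7 were higher and 1 lower, at 90.6 to 123 CPM against 76.8 CPM. Of 9 neutrophil markers, 8 were tested and 5 were higher, a count that was 2 with limma-voom. Mmp8, a neutrophil collagenase, stood at 42.7, 22.1 and 15.7 CPM after APAP, against 0.134 CPM in the control, and the chemokine receptor gene Cxcr2 at 14.5, 11.7 and 2.42 CPM, against 0.0890 CPM. Both were highest in library 1 and lowest in library 3, while Ly6g was at 0 in the control and at 0.139 CPM or less after APAP. Of the 8 pan-macrophage markers, 1 was higher and 3 lower, with 2 higher without APAP library 1 and 0 without library 2. The part of these cells in the receptor levels was not tested.

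Genes whose levels followed the same pattern as a receptor were sought by the distance between log2(CPM + 1) profiles over the 4 libraries, each centred on its own mean, among 11605 genes. Nearest to Cd36 was the intermediate filament gene vimentin (Vim), at a distance of 0.114, with 180 CPM in the control and a mean of 643 CPM in the APAP libraries, followed by Trim59. Nearest to Cd93 were Chil3, a chitinase-like protein of monocytes and macrophages, and the motor protein Myo5a, at larger distances of 0.452 and 0.455. Colec12 lay nearest to the osmotic stress factor Nfat5 (0.0557) and Glcci1. Msr1 lay nearest to Tk2 and Pak1, Cd68 to Copz1 and Tubb2b, Scarb2 to Yipf4 and Gtf2e1, and Scarf1 to Mrpl15 and Trp53, at distances of 0.00463 to 0.0427. Olr1 lay nearest to Nfatc3 and Alg13, but at its low level the added 1 CPM flattens its profile. The added 1 CPM also flattens neighbours that are low in the control, whose log2 fold changes differ from those of the receptors. These were 9.89 for Glcci1 beside 1.81 for Colec12, and 2.70 for Trim59 beside 1.87 for Cd36. Chil3 had 14.26 and Myo5a 7.23, beside 5.92 for Cd93.

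The 8 genes were also compared under 13 other settings. Cd93, Cd36 and Colec12 stayed higher and Msr1, Cd68 and Scarf1 lower under every setting, and Olr1 stayed higher under each that measured it. For these genes all APAP libraries lay on the same side of the control, so leaving a library out could hardly change the direction. Every setting used the same single control, so none shows how far the control itself varies. The sign of Scarb2 changed between settings, with values from -0.27 to 0.18.

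**Figure D4:**
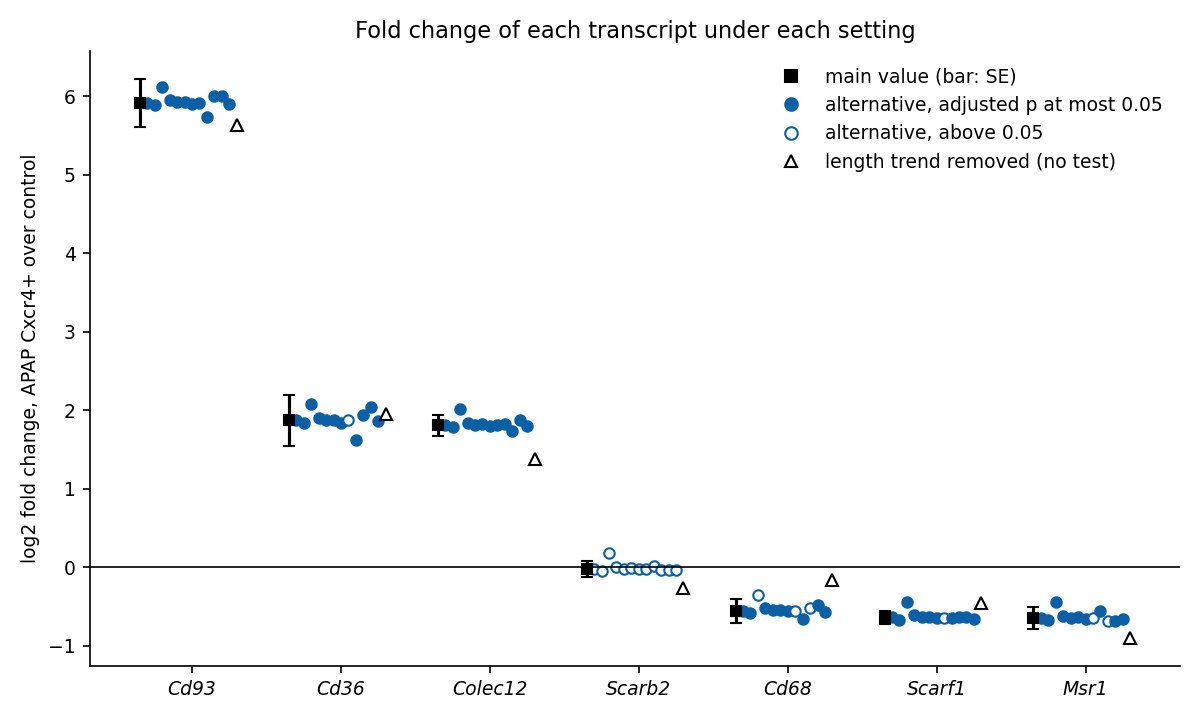
Log2 fold change of 7 receptor transcripts (Olr1, with 0 counts in the control, is left out) in the main test, with SE as a bar, and under each alternative, filled where the adjusted p was at most 0.05. Values for Cd93 stay between 5.64 and 6.12 and those for Scarb2 lie on both sides of 0, while some alternatives for Cd68, Msr1, Scarf1 and Cd36 are open circles.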

How the data were processed

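Messenger RNA was sequenced from TRIZOL extracts with a Tecan universal plus kit, per the labels. The deposited values are read counts per gene, whole numbers without normalization; the tools HISAT2 and Subread and the build mm39 are listed per the submitters' processing notes. Versions, annotation, strand setting and the handling of shared reads are not given there. Symbols were matched for 28926 of 29247 IDs (98.9%). The APAP columns are not numbered by replicate. No 2 libraries were copies of each other (chi-square per degree of freedom 16.5 to 405).

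The main test was edgeR 4.0.16 (R 4.3.3): filterByExpr (minimum count 10, minimum total 15) kept 18715 genes, TMM factors scaled the libraries, and the quasi-likelihood F test had no covariates (2 residual and 3.8 prior degrees of freedom). Benjamini-Hochberg adjustment was over all genes tested. The fit was tested on simulated data in which the control varied like the APAP group, so that assumption itself was not tested. Intervals of log2 fold changes are 95% t intervals. Exon lengths are unions of GENCODE M21 exons (GRCm38), which can exceed the length expressed; overlaps between genes were checked there too.

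The receptor genes, the 4 pathway lists and the 13 marker lists were chosen with earlier results of these data known. Named are the 8 receptors, called genes of the other scavenger receptors, the 4 genes of the other pathway lists and up to 3 of each marker list with the smallest p, Cxcr4, and the 2 nearest profiles among genes of at least 1 CPM; genes outside this rule, such as uncalled receptors and markers at 0, were chosen after their values were seen. Alternatives were DESeq2 1.42.0, limma-voom 3.58.1, other scalings and filters, glmTreat, each APAP library left out, mitochondrial and ribosomal protein genes left out, and removal of the length trend. Protein sequences were not used here, and the values of some list genes are not reported here.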

Additional observations from a re-analysis of the deposited data

How the results depend on the processing

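Directions were the same under every setting for Cd93, Cd36, Colec12, Msr1, Cd68, Scarf1 and, where measured, Olr1, which a filter of 5 CPM removed. All settings shared the single control library. Against a 2-fold change, adjusted p was 0.072 for Cd36 (log2 fold change 1.87) and 1 for Msr1 (-0.65), Cd68 (-0.56) and Scarf1 (-0.64). Scaling by total count alone, which moved the median of all genes from 0.08 to 0.29, gave Cd68 a value of -0.35 (adjusted p = 0.112) and Scarb2 one of 0.18. Scarb2 was at 0.0082 without a count filter and 0.0114 without APAP library 1. Without single APAP libraries, Msr1 ranged from -0.69 to -0.56, Cd68 from -0.66 to -0.48, Cd36 from 1.62 to 2.04, Colec12 from 1.74 to 1.87, Cd93 from 5.74 to 6.01, Scarf1 from -0.65 to -0.63 and Scarb2 from -0.0360 to 0.0114; adjusted p without library 2 was 0.0523 for Msr1 and 0.119 for Cd68. Values with the length trend removed were -0.90 for Msr1, -0.16 for Cd68, -0.27 for Scarb2, 1.38 for Colec12, 5.64 for Cd93 and -0.46 for Scarf1. The cause of these shifts was not tested.

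Counts of called genes moved most under the 2-fold test: 0 of the 8 receptors lower, 1 higher and 0 lower of the other scavenger receptors, 2 and 0 of the lipid genes, 1 and 0 of the lysosomal genes and 0 and 0 of the group XIV lectins. With single libraries left out, 1 to 3 of the 8 receptors were lower, 4 to 8 other scavenger receptors higher and 2 to 5 lower, 5 to 7 lipid genes higher, 2 to 8 lysosomal genes higher and 1 to 7 lower, and 0 to 1 lectins higher and 1 to 2 lower. Scaling by total count gave 8 lipid genes higher and 2 lysosomal genes lower, the 5 CPM filter 1 other scavenger receptor lower, and limma-voom 2 lectins lower. Over all genes, 4758 were higher and 3537 lower in the main test, 1099 and 280 against a 2-fold change, and 2979 and 2022 without APAP library 2. No paired analysis was possible because the control is a single library without a replicate number. Depth limits Olr1 and Ssc5d, with 10 to 37 counts in the APAP libraries. The control also had counts for fewer genes than any APAP library (18793, against 23376 to 23880).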
